A study of Mus musculus with 4 samples.

Results

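L6-Syt6 neurons were the excitatory neurons that the authors' deposited metadata assign to the cluster of that name, 5092 of 9368 excitatory neurons in 7 clusters. Each neuron was matched to its UMI counts by library and cell barcode. Single-cell 3′ RNA sequencing had been run on the ventromedial prefrontal cortex (prelimbic and infralimbic areas) of male C57BL/6 mice. The labels give an age of 8 weeks, which in the study's methods is the age at virus injection, and tissue was taken several weeks later. All mice carried rAAV2-retro viruses, which enter axon terminals, encoding EGFP and a barcode, injected into 5 targets: agranular insula, dorsomedial striatum, mediodorsal thalamus, basolateral amygdala and lateral hypothalamus. There were 3 libraries of unsorted cells, from mouse 1, 2 and 3, and 1 library of EGFP+ cells sorted from 3 further mice and pooled. No library came from a mouse without virus, and sort, mice and library cannot be told apart on the sorted side.

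Corticothalamic neurons of layer 6 send glutamatergic axons to the thalamus, with side branches to the thalamic reticular nucleus, and feed back onto the cells that drive the cortex. They are set apart from other projection neurons by deep-layer transcription factors. At the border with the white matter lie layer 6b neurons, survivors of the embryonic subplate, some of which respond to orexin.

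L6-Syt6 neurons made up 53.7% of the excitatory neurons of mouse 1 (1511 of 2816; Wilson 95% interval 51.8 to 55.5%), 57.4% of mouse 2 (1426 of 2486; 55.4 to 59.3%) and 56.1% of mouse 3 (1382 of 2463; 54.1 to 58.1%). The sorted library held 773 of 1603, or 48.2% (45.8 to 50.7%), below every unsorted library. These intervals cover counting error only, and the shares were not tested, since the spread of sorted libraries was not measured. Median UMIs per L6-Syt6 neuron were 22502 to 23820.5 without the sort and 35701 with it, out of 54749198 to 87841541 UMIs per library. Median mitochondrial shares were 5.89 to 5.90% and 2.73%. Libraries shared 82 cell barcodes, which touched 38 L6-Syt6 neurons, and the shares without those neurons moved by less than the spread between mice.

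The cluster was checked against Syt6, a synaptotagmin, Foxp2, a forkhead transcription factor, Hs3st4, a heparan sulfate 3-O-sulfotransferase, and Tle4, a Groucho corepressor. In mm10 coordinates with GENCODE annotation, Syt6 lies on chromosome 3 from 103575231 to 103645569, Foxp2 on chromosome 6 from 14901349 to 15441977, Hs3st4 on chromosome 7 from 123982869 to 124398989 and Tle4 on chromosome 19 from 14448150 to 14598051. The first 3 overlap small or predicted genes on the same strand, whose reads cannot be told apart there. Levels are given as UMIs relative to the total of the summed neurons (CPM), scaled within each comparison by TMM factors, so that a gene's level shifts slightly between comparisons. Since the clusters were made from the expression of these cells, differences between clusters are described and not tested.

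Syt6 stood at 147, 141 and 142 CPM in L6-Syt6 neurons of mouse 1, 2 and 3 and at 179 CPM in the sorted library. The highest other cluster in each library had at most 7.29 CPM, which put L6-Syt6 neurons 19.4 to 95.4 times higher. Foxp2 was at 259, 257, 249 and 294 CPM in the same order. Its next cluster was L5-Htr2c in the unsorted libraries, at 51.6 to 61.5 CPM, and L5-Bcl6 in the sorted one, at 16.9 CPM. Both genes were higher in L6-Syt6 than in every other cluster measured in each library, where the sorted library gave no level for L5-Htr2c.

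Hs3st4 and Tle4 did so less. Hs3st4 was at 397, 392, 386 and 650 CPM in L6-Syt6 neurons, against 193, 226 and 217 CPM in the L5-Htr2c neurons of mouse 1, 2 and 3, a ratio of 1.74 to 2.06. Tle4 was at 264, 264, 267 and 269 CPM, against 259, 267 and 249 CPM in L5-Htr2c, so that the ratio was 1.02, 0.989 and 1.07. Only 4 L5-Htr2c neurons were sorted, too few to be used, and in that library the ratios to the next cluster were 12.8 for Hs3st4 and 10.5 for Tle4. Tle4 thus set apart L6-Syt6 and L5-Htr2c together.

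**Figure D1:**
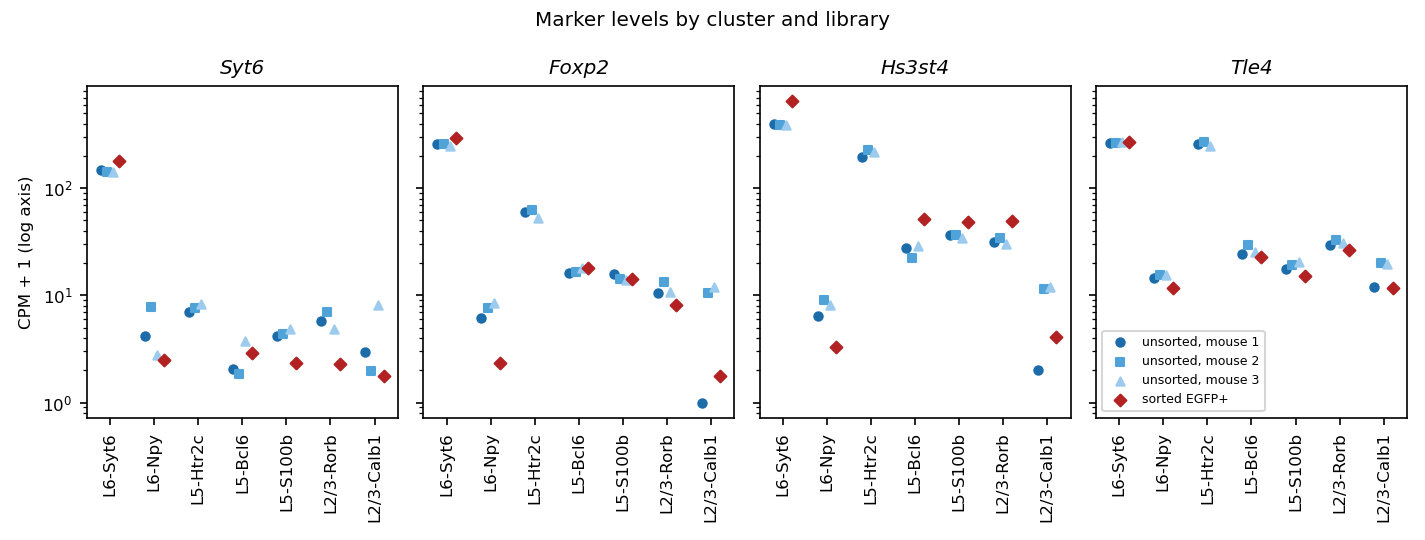
CPM + 1 on a log axis of the 4 markers (panels) in each cluster (x axis), with 1 point per library and clusters of under 10 neurons in a library left out. Syt6 is above 140 CPM in L6-Syt6 neurons and at most 7.29 CPM elsewhere, while Tle4 is near 260 CPM in both L6-Syt6 and L5-Htr2c neurons.

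Neuron by neuron, after each was thinned to 10000 UMIs, a UMI of Syt6 was found in 72.3% ± 5.21 (SD, n = 4 libraries) of L6-Syt6 neurons, of Foxp2 in 87.3% ± 2.38, of Hs3st4 in 97.1% ± 1.42 and of Tle4 in 88.8% ± 0.768. Without thinning the shares were 89.6%, 95.5%, 98.0% and 97.3%. Thinning left out 123 L6-Syt6 neurons, 33, 29 and 27 from mouse 1, 2 and 3 and 34 from the sorted library. In L6-Npy, the other layer 6 cluster, the thinned shares were 1.01%, 2.69%, 2.35% and 10.0%. In L5-Htr2c neurons of the unsorted libraries they were 5.45%, 41.0%, 85.2% and 89.3%, so that per neuron Syt6 was the marker that L5-Htr2c shared least and Tle4 was as frequent there as in L6-Syt6. Free RNA was gauged in cells outside the metadata with microglial genes, where 2.05 to 3.02% held a UMI of Syt6, 2.42 to 3.1% of Foxp2, 2.89 to 3.88% of Hs3st4 and 19.8 to 25.6% of Tle4 in the unsorted libraries, at median depths of 4227 to 4473.5 UMIs. In the sorted library 0% of 58 such cells held Syt6 or Foxp2, 1.7% Hs3st4 and 32.8% Tle4, at a median of 7208.5 UMIs, so that the Tle4 share is no gauge of free RNA. The thinned Syt6 share in L6-Npy was below that of the microglial cells, which were not thinned, in each unsorted library. The thinned Foxp2 share was above it in mouse 1 (4.07 against 3.1%) and mouse 2 (2.69 against 2.42%). Without thinning, the Syt6 shares in L6-Npy were 3.05, 3.75 and 2.18% in mouse 1, 2 and 3, against 3.02, 2.05 and 2.75%. Those of Foxp2 were 5.76, 4.49 and 4%, against 3.1, 2.42 and 2.84%. For Syt6 the order thus depended on the thinning.

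All 4 markers were found together in 2675 of the 4969 L6-Syt6 neurons of at least 10000 UMIs, or 55.1% ± 6.42 (SD, n = 4), and none in 23. Shallower L6-Syt6 neurons of the sorted library stood apart. Of its 34 neurons under 10000 UMIs, 27 held a UMI of none of the 4 markers at a median of 6383.5 UMIs, with a median mitochondrial share of 15.1%. In mouse 1, 2 and 3 this was 5 of 33, 4 of 29 and 6 of 27 neurons, at medians of 7812 to 7954 UMIs and mitochondrial shares of 5.92 to 7.72%.

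Against the sum of all other excitatory neurons of the same library, 697 of 12949 genes (5.38%) were higher in L6-Syt6 neurons and 975 (7.53%) lower, at a mean log2 ratio of at least 1 in size with the same sign in 4 of 4 libraries. The genes with the highest ratios are described singly, and a shared role among them was not tested. Ighm, an immunoglobulin heavy chain constant gene, was at 47.6, 46.0, 48.4 and 41.2 CPM in L6-Syt6 neurons of mouse 1, 2, 3 and the sorted library, and at 0.877, 1.33, 0.792 and 0.487 CPM in the other neurons (log2 ratio 5.68 ± 0.48, SD, n = 4). Sla, which encodes a Src-like adaptor, was at 77.3, 74.8, 70.8 and 77.2 CPM against 2.19, 2.33, 2.38 and 1.09 CPM (5.24 ± 0.55). Syt6 lay between them at 5.65 ± 0.88. No library overlapped between L6-Syt6 and other neurons for any of these genes, which follows from picking them by their ratio.

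The other genes of this top group are given with their values. Rprm, which encodes the cell-cycle arrest protein Reprimo, was at 1257, 1236, 1224 and 1200 CPM against 73.6, 76.2, 79.5 and 40.1 CPM (4.24 ± 0.45). Cyr61 and Wisp1, matricellular proteins of the CCN family, had log2 ratios of 4.48 ± 0.51 and 3.95 ± 0.19. Lsp1, an actin-binding protein of lymphocytes, had 4.31 ± 0.63, and Ddah1, which breaks down an inhibitor of nitric oxide synthesis, had 4.04 ± 0.31. The secreted or matrix proteins Vwc2 and Col5a1 were at 4.25 ± 0.88 and 3.64 ± 0.11, and Thsd7b, a thrombospondin-repeat protein, at 4.09 ± 0.34. The lincRNA Gm40518 had 4.91 ± 0.51, Foxp2 had 4.41 ± 0.46 and the homeobox gene Sebox 4.20 ± 0.66. Sema5a, a transmembrane semaphorin, was at 178, 170, 174 and 221 CPM against 17.6, 17.2, 19.9 and 5.21 CPM, so that its ratio of 5.39 in the sorted library exceeded the 3.12 to 3.33 of the unsorted ones.

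The lowest ratios belonged to genes that other excitatory neurons held at 20 to 200 CPM and L6-Syt6 neurons at under 4 CPM. Fam19a1, a secreted chemokine-like protein, was at 0.858, 0.482, 0.993 and 1.39 CPM in L6-Syt6 neurons against 107, 108, 97.8 and 91.4 CPM (log2 ratio −6.74 ± 0.69). Slc30a3, the transporter that loads zinc into synaptic vesicles, was at 1.32, 1.73, 2.56 and 2.37 CPM against 109, 105, 112 and 142 CPM (−5.86 ± 0.36). Syt17, another synaptotagmin, had −6.21 ± 0.16, Stxbp6, which binds SNARE proteins, −6.55 ± 0.36 and the cation channel Trpc5 −5.93 ± 0.25. Tle3, a paralogue of Tle4, had −5.79 ± 0.46. Rtn4rl1 had −5.85 ± 0.42, S100a6 −5.76 ± 0.48, Stum −5.75 ± 0.17 and Ptgfrn −5.67 ± 0.24.

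**Figure D2:**
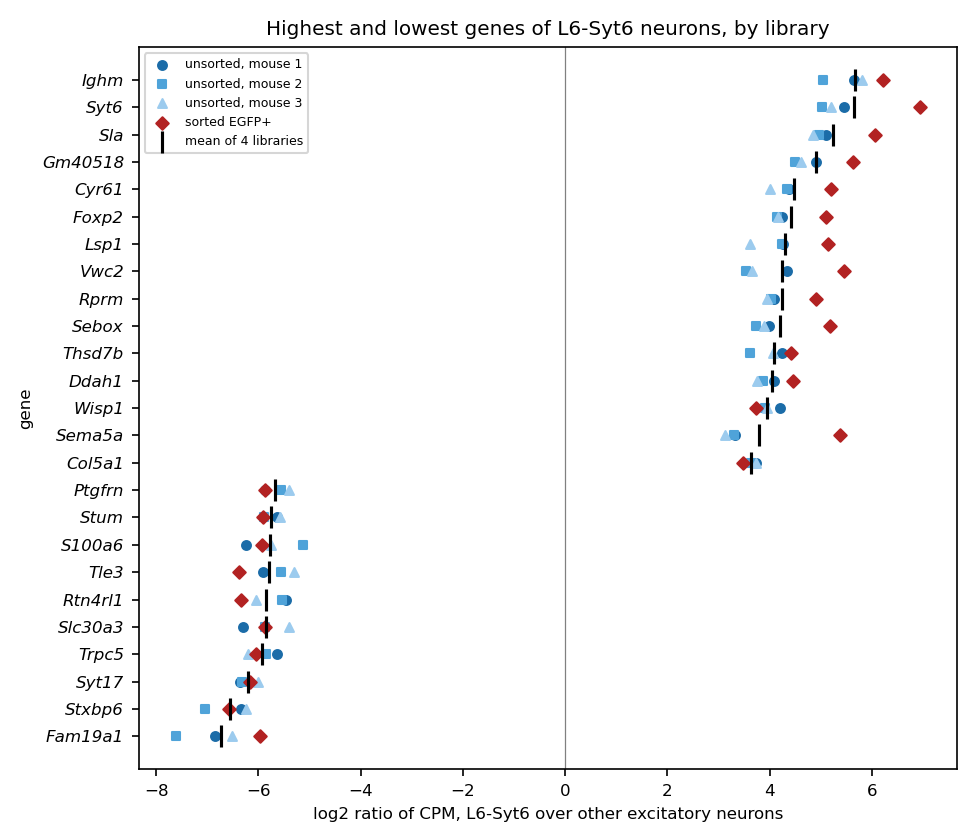
Log2 ratio of CPM in L6-Syt6 neurons over all other excitatory neurons of the same library (x axis) for the 15 highest and 10 lowest genes, with 1 point per library and a bar at the mean of 4 libraries. Every point of a gene lies on the same side of 0, and the sorted library gives the highest ratio for Syt6 (6.94) and Sema5a (5.39).

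Few of these genes were particular to L6-Syt6 neurons in the sense of exceeding each cluster taken alone. Of the 697 higher genes, 134 (fewer with a pseudocount of 5 CPM in place of 1) had at least 2 times the mean level of every other cluster. Against L6-Npy 524 of 697 did so, against L5-Bcl6 505, against L5-S100b 567, against L2/3-Rorb 585 and against L2/3-Calb1 561. Against L5-Htr2c, measured in the unsorted libraries only, 296 did so and the median log2 ratio was 0.82. L5-Htr2c was therefore the cluster nearest to L6-Syt6 by this count. The genes with the largest gap to their nearest cluster were Syt6 (log2 ratio 4.24), Ighm (4.20), Sla (4.08), Thsd7b (3.09) and Cyr61 (3.02). Sema5a (−0.21), Fezf2 (−1.03) and Ctgf (−0.98) were not higher than in L5-Htr2c, and Sulf1 (−0.37) and Ntsr1 (−0.57), a neurotensin receptor gene used to mark layer 6 corticothalamic neurons, were not higher than in L6-Npy.

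Among 11 transcription factors of deep-layer neurons, 5 were higher in L6-Syt6 neurons and none lower, beside 5.38% of all genes higher and 7.53% lower. The median log2 ratio of the 11 was 0.85, against −0.01 over all 12949 genes. The 5 higher ones were Zfpm2 (2.31 ± 0.12), Nfia (2.27 ± 0.04), Tbr1 (1.31 ± 0.06), Nfib (1.12 ± 0.04) and Bcl11b (1.07 ± 0.14). Bcl11b was nonetheless lower in L6-Syt6 than in L5-Bcl6 (log2 ratio −1.11) and L5-Htr2c (−0.68), and Nfib lower than in L5-Bcl6 (−0.21). With the other clusters weighted equally the ratio of Bcl11b was 0.35 and that of Nfib 0.87, both under the fold limit of 1. Tbr1, which specifies layer 6 neurons, was at 362, 365, 357 and 316 CPM in L6-Syt6 neurons against 145, 141, 141 and 135 CPM. Fezf2 and Sox5 had ratios of 0.85 ± 0.23 and 0.57 ± 0.09. Of 13 factors listed for upper-layer and intratelencephalic neurons, 9 were lower and none higher (median −2.83). They included Cux2 (−5.62 ± 0.48), Bhlhe22 (−5.52 ± 0.22) and Rorb (−4.23 ± 0.25). Pou3f1, also on that list, had −5.25 ± 0.24, but in the study it is a marker of the layer 5 cluster L5-Bcl6. All 6 markers of intratelencephalic neurons were lower, as were 4 of 5 markers of near-projecting neurons.

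For glutamate loading into vesicles, Slc17a7 had a log2 ratio of −0.01 ± 0.07 between L6-Syt6 and other neurons. Slc17a6, the transporter typical of thalamic neurons, was at 27.9, 28.1, 29.6 and 26.7 CPM in L6-Syt6 neurons against 14.9, 14.9, 15.1 and 3.79 CPM. Its mean ratio of 1.40 ± 0.93 rests on the sorted library, at 2.80, since mouse 1, 2 and 3 gave 0.90, 0.92 and 0.97.

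Receptors for neuromodulators split in both directions. Of 44 measured, 10 were higher and 18 lower (median −0.41), where 5.38% of all genes were higher and 7.53% lower. The higher ones included both orexin receptors, Hcrtr1 (3.47 ± 0.12) and Hcrtr2 (2.85 ± 0.72), the nicotinic subunits Chrna5 (3.52 ± 1.51) and Chrna4 (1.77 ± 0.02), the serotonin receptors Htr1f (2.41 ± 0.22) and Htr7 (2.40 ± 0.32), the dopamine receptor Drd5 (2.02 ± 0.41) and the adrenergic receptor Adra2a (2.01 ± 0.18). Hcrtr1 was at 6.32, 6.42, 6.09 and 5.52 CPM in L6-Syt6 neurons and at 0.439, 0.540, 0.515 and 0.450 CPM in the others. Chrna5, which makes nicotinic receptors of layer 6 more sensitive, was at 13.6, 13.6, 12.9 and 11.9 CPM against 1.53, 2.24, 1.98 and 0.150 CPM. Lower were Npy2r (−5.36 ± 0.65), the kappa opioid receptor Oprk1 (−5.25 ± 0.71), the oxytocin receptor Oxtr (−4.84 ± 0.58), Htr2a (−4.74 ± 0.43), Drd2 (−4.65 ± 0.45) and the cannabinoid receptor Cnr1 (−4.48 ± 0.23). For Hcrtr2, L5-Htr2c neurons were at least as high (log2 ratio −0.94).

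Ion channel and adhesion lists held more lower than higher members, beside the same shares of all genes, 5.38% higher and 7.53% lower. Of 41 potassium channel genes 1, Kcnk1 (1.15 ± 0.11), was higher and 11 were lower, and of 24 sodium, calcium and HCN channel genes none was higher and 8 were lower, among them Hcn4 (−3.90 ± 0.48) and Cacna1g (−3.15 ± 0.12). Of 38 axon guidance genes 4 were higher, Sema5a, Nrp1 (1.87 ± 0.11), Plxna2 (1.20 ± 0.07) and Ephb1 (1.17 ± 0.13), and 15 lower, down to Ntng1 (−5.51 ± 0.20) and Plxnd1 (−5.06 ± 0.38). Of 21 cadherins 2 were higher and 10 lower. Genes that build or edit heparan sulfate had 6 of 15 higher and 3 lower. Besides Hs3st4 the higher ones were Sulf1, an extracellular sulfatase that removes sulfate from it (1.51 ± 0.10), and the sulfotransferases Hs6st2 (1.49 ± 0.07), Hs3st2 (1.30 ± 0.11), Hs3st5 (1.25 ± 0.08) and Ndst1 (1.17 ± 0.04).

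Of 10 heat shock genes 5 were higher in L6-Syt6 neurons and none lower (median 0.90), of 17 immediate early genes 5 were higher and 1 lower (median 0.82), and of 19 nuclear genes of oxidative phosphorylation 5 were higher and none lower (median 0.57), beside 5.38% of all genes higher and 7.53% lower. Mitochondrial shares of UMIs were lower in L6-Syt6 than in other neurons in each library, at 5.89, 5.90, 5.90 and 2.73% against 7.48, 7.54, 7.33 and 4.08%. The part of these shares in the levels of the 3 lists was not tested.

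A small set of L6-Syt6 neurons carried layer 6b genes. After thinning to 10000 UMIs, a UMI of at least 2 of Cplx3, Ctgf and Nxph4 was found in 37 of 1478 L6-Syt6 neurons of mouse 1 (2.50%, Wilson interval 1.82 to 3.43%), 32 of 1397 of mouse 2 (2.29%, 1.63 to 3.22%), 29 of 1355 of mouse 3 (2.14%, 1.49 to 3.06%) and 15 of 739 of the sorted library (2.03%, 1.23 to 3.32%). The intervals of all 4 libraries overlap. In all, 42 neurons held all 3 genes, 71 held 2, 992 held 1 and 3864 held none. Outside L6-Syt6, 5 of 302 L5-Htr2c neurons met the same rule, and 0 of 3824 neurons of the other 5 clusters did, which allows a share of up to 0.0785%. Asking for all 3 genes lowered the unsorted share from 2.31% to 0.893%, and using unthinned counts raised it to 3.81%, so the size of the set depends on the rule.

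The 113 neurons with at least 2 of these genes were compared with the 3864 with none, as sums per library with the library as a block (edgeR quasi-likelihood test, a call needed an adjusted p below 0.05 and a log2 fold change of 0.5 or more in size). The 3 genes that made the split stood at 312 CPM for Cplx3, 352 for Ctgf and 83.6 for Nxph4, against 0.311, 9.66 and 0.803 CPM, and were not tested. Of 12640 other genes, 938 (7.42%) were higher and 1245 (9.85%) lower in the layer 6b set. Median UMIs were 21654.5 to 30892 in the set and 22432 to 36370 without, and median genes per neuron at equal depth were 3778 to 3905 and 3782 to 3917. Mitochondrial shares were higher in the set in each library, at 7.70, 7.01, 7.67 and 3.65% against 5.82, 5.85, 5.81 and 2.68%.

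Of 7 further layer 6b genes that were not used for the split, 6 were called higher, with a median log2 fold change of 2.25 against −0.01 over all genes tested. Some of them are not particular to this set, since Svil and Tmem163 were at 16.02 and 16.3 CPM in L5-Htr2c neurons, against 2.08 and 3.07 CPM in all L6-Syt6 neurons, and Hcrtr2 and Ctgf, which helped make the split, were at 14.4 and 83.3 CPM against 6.66 and 37.6 CPM. In L6-Npy neurons Lpar1 was at 13.6 CPM and Nr4a2 at 120 CPM, against 5.02 and 106 CPM in L6-Syt6. The log2 ratio of L6-Syt6 to L5-Bcl6 was −2.12 for Tmem163, and that to L5-Htr2c was −4.28 for Trh. Of 5 near-projecting markers 2 were called higher in the set and none lower, Trhr (1.83, SE 0.24) and Slc17a8, which rested on 5 UMIs in the set and 3 without. Moxd1, a monooxygenase-like protein, was at 30.3, 33.5, 18.2 and 5.70 CPM in mouse 1, 2, 3 and the sorted library against 0.0397, 0.0409, 0.0416 and 0 CPM. It rested on 3 UMIs in the neurons without. Tmem163, a zinc-binding vesicle protein, was at 44.9, 45.1, 63.8 and 62.7 CPM against 1.15, 1.02, 1.04 and 0.555 CPM (log2 fold change 5.81, SE 0.28, adjusted p = 1.49e-53). Svil, an actin-associated protein, was at 38.8, 32.0, 31.9 and 32.3 CPM against 1.07, 0.654, 0.749 and 0.768 CPM (5.37, SE 0.34, adjusted p = 6.30e-38). The groups did not overlap for Moxd1, Tmem163 or Svil, and the background for higher calls was the 7.42% above. Genes were tested at a mean CPM of at least 1 over the sums of both groups. Moxd1 and Svil passed that limit only through the set, so they could be called only as higher. Tmem163 was near that limit in the neurons without.

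The other members were higher by smaller amounts. Lpar1, a lysophosphatidic acid receptor, had a log2 fold change of 2.25 (SE 0.28), Hcrtr2 of 1.43 (SE 0.29) and the nuclear receptor Nr4a2 of 1.13 (SE 0.08), with adjusted p of 1.57e-12, 1.10e-05 and 1.19e-29. Hcrtr2 was at 26.7, 14.6, 7.59 and 13.3 CPM in the set against 7.35, 5.64, 5.45 and 4.91 CPM. Trh was not called (0.85, SE 0.55, adjusted p = 0.268).

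The corticothalamic genes of the same neurons did not move together. Of 6 listed beside the 4 markers, 0 were called higher and 2 lower, where 7.42% of all genes were higher and 9.85% lower. Their median log2 fold change was 0.08, with 3 of the 6 above 0. On the log2 scale Rprm fell by 3.07 with an SE of 0.07 (adjusted p = 7.66e-119), from 1355, 1315, 1313 and 1281 CPM to 125, 157, 138 and 224 CPM. It was found in 33.7% ± 0.966 of the set after thinning and in 98.1% ± 0.460 of the neurons without layer 6b genes. Syt6 fell by 1.30 (SE 0.11, adjusted p = 1.08e-24), to 52.2, 56.8, 57.7 and 77.8 CPM from 142, 139, 139 and 174 CPM, and Foxp2 by 0.75 (SE 0.08, adjusted p = 2.18e-17). Hs3st4, at 410, 424, 415 and 691 CPM against 377, 365, 368 and 610 CPM, and Tle4, at 305, 317, 328 and 256 CPM against 246, 244, 246 and 249 CPM, did not reach the fold limit. Of the 4 markers, then, 2 were lower in the layer 6b set and 2 were called in neither direction. Slc17a7 was found in 100% of the set in each library.

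**Figure D3:**
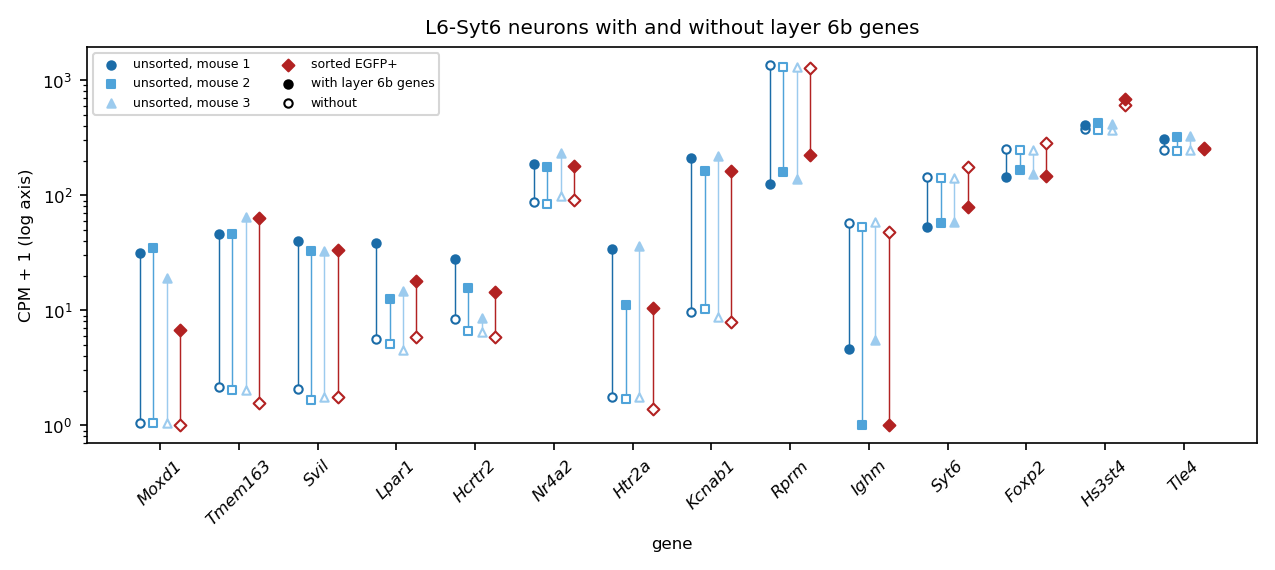
CPM + 1 on a log axis of 14 genes (x axis) in L6-Syt6 neurons with at least 2 of Cplx3, Ctgf and Nxph4 (filled) and with none (open), joined by a line within each library. Moxd1, Tmem163, Svil, Htr2a and Kcnab1 are higher and Rprm, Ighm, Syt6 and Foxp2 lower in the set in all 4 libraries, while Hs3st4 and Tle4 differ little.

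At a mean CPM of at least 5, the genes that rose most in the set, beside Moxd1, Tmem163 and Svil, were Ifi27l2a, Adgrg6, Fbxl7, C130073E24Rik and Bhlhe22. Adgrg6, an adhesion G protein-coupled receptor, was at 14.6, 27.7, 25.8 and 9.49 CPM against 0.119, 0.245, 0 and 0.128 CPM (log2 fold change 7.19, SE 0.54). Bhlhe22, a helix-loop-helix transcription factor of cortical projection neurons, was at 18.2, 32.0, 27.3 and 34.2 CPM against 0.794, 0.776, 0.624 and 0.768 CPM (5.19, SE 0.37). The log2 fold changes of Ifi27l2a, Fbxl7 and C130073E24Rik were 7.35, 5.83 and 5.49. Adgrg6 and Bhlhe22 passed the limit on mean CPM only through the set, so they could be called only as higher. Among the genes with the strongest fall, Ighm was at 3.64, 0, 4.56 and 0 CPM against 56.1, 52.3, 57.1 and 46.7 CPM (−4.58, SE 0.32, adjusted p = 2.55e-33).

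The remaining named genes that fell had 1 or 2 UMIs in the set, so ratios are given with their exact counting intervals. The lincRNA Gm10635 was 51.3 times higher without layer 6b genes (9.20 to 2028), 5330416C01Rik 48.7 times (8.73 to 1925), Mylk, a myosin light chain kinase, 29.9 times (5.35 to 1181), Blnk, a B cell adaptor, 29.4 times (5.26 to 1161), the Nogo receptor Rtn4r 27.9 times (7.70 to 230.3), Trbc1, a T cell receptor constant gene, 26.3 times (4.71 to 1041) and Iqgap2 23.5 times (6.49 to 194). All of these were called lower.

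Modulator receptors changed in both directions within L6-Syt6, with 10 of 38 higher in the layer 6b set and 8 lower (median −0.06). Over all genes tested 7.42% were higher and 9.85% lower. Htr2a, a receptor that was far lower in L6-Syt6 than in other neurons, was at 32.8, 10.2, 34.9 and 9.49 CPM in the set against 0.755, 0.695, 0.749 and 0.384 CPM (log2 fold change 5.01, SE 0.41, adjusted p = 7.52e-26). It passed the limit on mean CPM only through the set, so it could be called only as higher. The mu opioid receptor Oprm1 rose by 2.71 (SE 0.54), Adra2a by 2.09 (SE 0.17), the PACAP receptor Adcyap1r1 by 1.88 (SE 0.17) and the dopamine receptor Drd1 by 1.17 (SE 0.12). Adra1a fell by 3.43 (SE 0.47), Adrb1 by 2.73 (SE 0.47) and Cnr1 by 2.26 (SE 0.40).

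Of 41 potassium channel genes 9 were higher and 14 lower, where 7.42% of all genes tested were higher and 9.85% lower. Kcnab1, an auxiliary subunit of Kv1 channels, was at 210, 160, 219 and 161 CPM in the set against 8.74, 9.15, 7.82 and 6.83 CPM (4.52, SE 0.12, adjusted p = 2.11e-105), and Kcng1 at 77.7, 72.8, 48.6 and 98.7 CPM against 6.99, 6.78, 6.53 and 5.50 CPM (3.50, SE 0.17). Of 38 axon guidance genes 10 were higher, among them Sema3d (2.78, SE 0.41), Robo2 (2.58, SE 0.11) and Efna5 (2.33, SE 0.23), and 14 lower, among them Sema3c (−3.10, SE 0.29), Epha4 (−2.89, SE 0.16) and Sema6d (−2.48, SE 0.34). The median of this list was −0.36, with Sema6a, which had no UMI in the set, fitted or at its bound of 3 UMIs. Cadherins had 8 of 21 higher and 3 lower, led by Cdh4 (2.79, SE 0.35) and Pcdh11x (2.46, SE 0.14). Called guidance and channel genes thus went in both directions.

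Activity, stress and energy lists held more lower than higher members in the layer 6b set, where 7.42% of all genes were higher and 9.85% lower. Of 17 immediate early genes 8 fell, among them Egr2 (−1.73), Egr3 (−1.13) and Arc (−0.99), and 1, Nr4a3, rose (0.81), with a median of −0.38. Heat shock genes fell in 4 of 10 (median −0.34), interferon and antigen presentation genes in 4 of 6 (median −0.75) and nuclear genes of oxidative phosphorylation in 7 of 19 (median −0.31), with none higher in any of these 3 lists. Markers of microglia, at summed levels of 16.4 to 20.4 CPM in the unsorted libraries with the set and 14.3 to 16.6 CPM without, had 0 of 3 called by edgeR or DESeq2, with 0 at an unadjusted p below 0.05. Of 3 astrocyte markers tested, Slc1a2, a glutamate transporter, was higher at 2166 to 2857 CPM against 1064 to 1272 CPM, Slc1a3 was higher (1.73, SE 0.65) and Aldoc lower (−0.79, SE 0.25), while Aqp4 and Aldh1l1 were at 0 in the set in all 4 libraries. Of 5 vascular markers 1, Flt1, was higher (2.05, SE 0.62), and their summed level was 75.8 CPM with and 23.1 CPM without in mouse 3, against 14.3 to 30.1 CPM with and 16.9 to 25.5 CPM without in the other libraries. The part of other cells' RNA and of the mitochondrial share in these differences was not tested.

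A UMI of the viral feature was found in 37.8% (14 of 37), 40.6% (13 of 32), 20.7% (6 of 29) and 86.7% (13 of 15) of the layer 6b set in mouse 1, 2, 3 and the sorted library, and in 51.2%, 48.3%, 50.5% and 88.9% of the neurons without layer 6b genes. The share was lower in the set in 4 of 4 libraries, by 13.3 ± 11.9 percentage points (SD, n = 4). An exact two-sided permutation test over the signs gave p = 0.125, the smallest value that 4 libraries allow.

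The sort asked what EGFP+ L6-Syt6 neurons express beside the unsorted ones. Bc1, Nos1 and other genes were higher in the sorted library, and Apoe, Nts and Cck were lower. Of 12543 genes 561 (4.47%) rose and 636 (5.07%) fell in L6-Syt6 neurons (edgeR quasi-likelihood test, 3 unsorted libraries against 1 sorted, which was assumed to vary like them). The spread of sorted libraries was not measured, so these p-values set 1 pooled library against the spread of 3 mice. Whether sort, animals or library lies behind a change cannot be told apart. Of the cluster's own markers 1 was called. Hs3st4 rose by 0.71 (SE 0.03, adjusted p = 1.62e-06), from 371, 367 and 363 CPM in mouse 1, 2 and 3 to 600.0 CPM. Syt6 (0.30, SE 0.03, adjusted p = 8.77e-05) and Foxp2 (0.18, SE 0.03, adjusted p = 0.00164) stayed under the fold limit, and Tle4 was not called (adjusted p = 0.991). None of 11 deep-layer transcription factors was called by edgeR or DESeq2 with the fold limit of 0.5, although 8 had an unadjusted and adjusted p below 0.05 at changes of up to 0.43 in size.

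Bc1, a small noncoding RNA of dendrites, was at 193, 215 and 251 CPM in mouse 1, 2 and 3 and at 774 CPM in the sorted library (1.82, SE 0.10, adjusted p = 2.28e-06). Nos1, neuronal nitric oxide synthase, was at 6.17, 6.65 and 7.17 CPM and at 16.3 CPM (1.29, SE 0.10), and Cacng4, a regulatory subunit of AMPA receptors, at 14.1, 13.0 and 12.9 CPM and at 28.6 CPM (1.09, SE 0.07). Pbld1 rose by 1.26 (SE 0.14), Peg10, an imprinted gene, by 1.12 (SE 0.14), Gm45184 by 1.06 (SE 0.15) and Amotl1 and Gm15124 by 1.00 each (SE 0.10 and 0.16). Of 21 glutamate receptors 5 rose and none fell (median 0.26), and of 23 sodium, calcium and HCN channel genes 6 rose and none fell (median 0.28), against 4.47% rising and a median of −0.01 over all genes. GABA-A receptor subunits had 0 of 11 and vesicular transporters 0 of 3 called by edgeR or DESeq2, with 10 and 0 at an unadjusted p below 0.05. Examples of the receptors and channels that rose were Grm3 (0.82), Grid1 (0.75), Scn4b (0.69) and Cacna1g (0.63).

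Of 19 peptide genes 7 fell and none rose (median −0.25), beside 5.07% of all genes falling. Cck, cholecystokinin, went from 92.8, 90.3 and 102 CPM to 43.3 CPM (−1.14, SE 0.07, adjusted p = 4.50e-06), Nts, neurotensin, from 8.56, 7.67 and 8.75 CPM to 1.68 CPM (−2.31, SE 0.17) and Igfbp6 from 16.9 ± 2.26 CPM (SD, n = 3) to 7.13 CPM (−1.25, SE 0.15). Sst, Vip, Npy and Adcyap1 were the other members that fell, of which the first 3 are typical of interneurons. Apoe, a glial lipoprotein, went from 11.9, 10.1 and 11.7 CPM to 1.82 CPM (−2.63, SE 0.17, adjusted p = 5.28e-06). Marcksl1 fell by 1.47 (SE 0.25), A830009L08Rik by 1.28 (SE 0.16), Gm3839 by 1.09 (SE 0.14) and Slc38a4, an amino acid transporter, by 1.08 (SE 0.13).

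Markers of other cell types fell with the sort in the same neurons. All 4 microglial markers tested fell, and the 7 markers together went from 14.9 to 15.7 CPM in the unsorted libraries to 1.60 CPM. The 5 vascular markers went from 27.0 to 27.7 CPM to 17.5 CPM, with Cldn5 at 0, the 5 oligodendrocyte markers from 47.8 to 49.5 CPM to 32.4 CPM, the 4 precursor markers from 3.27 to 3.72 CPM to 0.671 CPM with Olig2 at 0, and the 5 inhibitory markers from 4.72 to 6.87 CPM to 2.87 CPM. The 6 astrocyte markers went from 1133 to 1153 CPM to 1418 CPM, with Gja1 at 0 in the sorted library. The part of RNA from other cells in the falls of Apoe and the peptides was not tested. No immediate early gene of 17 was called by edgeR or DESeq2, with 11 at an unadjusted p below 0.05 and changes of up to 0.47 in size. Cox4i1 (−0.64) and Cox5a (−0.55) were the 2 of 19 oxidative phosphorylation genes that fell.

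**Figure D4:**
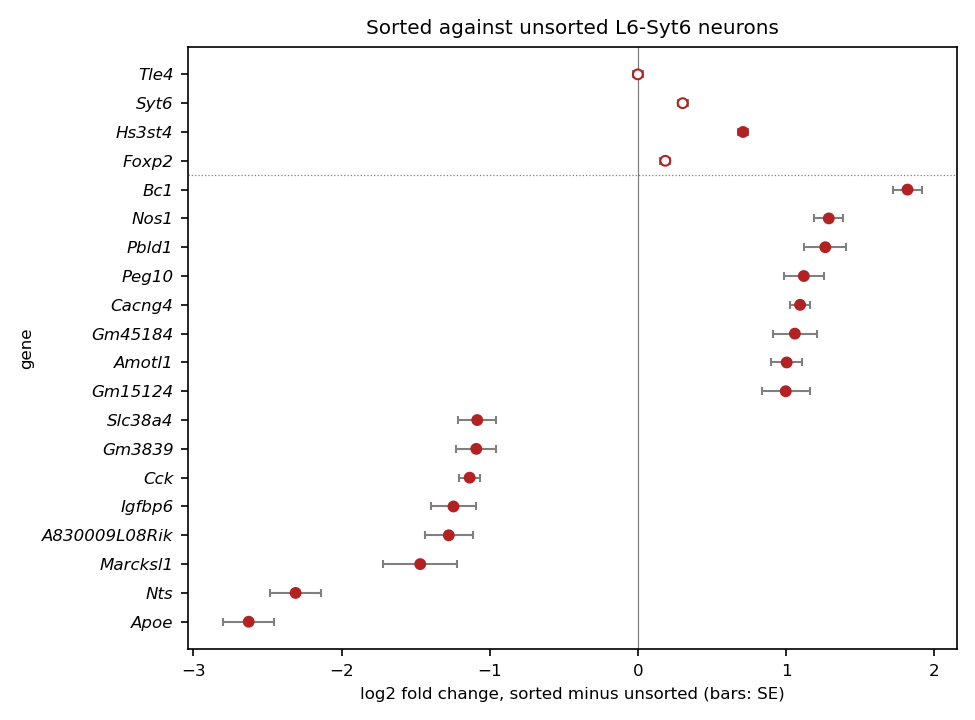
Log2 fold change with its SE, sorted minus unsorted L6-Syt6 neurons, for the 8 genes with the strongest rise, the 8 with the strongest fall and the 4 markers (above the dotted line), with called genes filled. Those 8 and 8 are called genes at a mean CPM of at least 5, among which Bc1 rose most (1.82) and Apoe fell most (−2.63). Of the markers, only Hs3st4 (0.71) is called.

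The change with the sort differed between L6-Syt6 and other excitatory neurons for 623 of 12949 genes. In 538 genes (4.15%) it was higher in L6-Syt6 neurons and in 85 (0.656%) lower (edgeR interaction test with the library as a block, again with 1 sorted library whose spread was not measured). DESeq2 called 397 higher and 19 lower, so that the lower calls depend on the tool. In 500 of the 538, the change was larger in size in the other neurons, with median log2 changes of −0.97 there and −0.32 in L6-Syt6. The makeup of the other neurons moved at the same time. L5-Htr2c neurons were 9.07 to 9.35% of them without the sort and 0.482% with it, and L6-Npy neurons 22.6 to 25.4% and 33.9%. With L5-S100b neurons alone as the comparator, 223 genes were called, and with L6-Npy neurons 754. Of the 9 genes named for this comparison, 3 were called by DESeq2, 4 with L6-Npy and 1 with L5-S100b as the comparator.

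Tshz2, a zinc finger gene typical of near-projecting neurons, was among the genes named for this comparison. It was at 11.4 ± 2.37 CPM (SD, n = 3) in unsorted and 9.93 CPM in sorted L6-Syt6 neurons, and at 70.4 ± 5.08 and 6.93 CPM in the others (difference 3.15, SE 0.23, adjusted p = 2.08e-09). Chrna5 was at 13.4 ± 0.398 and 11.9 CPM in L6-Syt6 neurons and at 1.92 ± 0.358 and 0.150 CPM in the others (3.46, SE 0.50). Rcan3, a calcineurin regulator, had a difference of 3.08 (SE 0.36), Igf1 of 2.91 (SE 0.60) and Ctgf of 2.60 (SE 0.27). All 4 markers were called, Syt6 (1.76, SE 0.23), Tle4 (1.15, SE 0.07), Foxp2 (0.92, SE 0.10) and Hs3st4 (0.84, SE 0.06), the first 3 with lower levels in the other sorted neurons. With L5-S100b as the comparator 1 of the 4 was called, Syt6 (1.66), while Tle4 was at 0.35, Foxp2 at 0.24 and Hs3st4 at 0.26, and with L6-Npy Tle4 was at 0.42 and not called. Against L5-S100b Tshz2 was at 0.35, Ctgf at 0.91 and Chrna5 at 2.43, none of them called. Rcan3 was at 2.44 and Igf1 at 5.70 with the same comparator. Against L6-Npy Tshz2 and Rcan3 were at 6.66 each, Ctgf at 6.31, Igf1 at 1.74 and Chrna5 at 1.27. Of the markers, Syt6 was at 1.72, Foxp2 at 2.47 and Hs3st4 at 2.32 against L6-Npy. The differences thus moved both ways with the comparator.

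In the opposite direction, Npy had a difference of −1.55 (SE 0.32), Utrn, a dystrophin relative, of −1.34 (SE 0.37), D16Ertd472e of −1.27 (SE 0.36) and the myelin gene Mobp of −1.21 (SE 0.21). Nuclear genes of oxidative phosphorylation stood out by their count, 10 of 19 higher with none lower (median 0.51, against −0.01 and 4.15% higher over all genes). Atp5g3, a subunit of ATP synthase, went from 652 ± 7.14 to 544 CPM in L6-Syt6 neurons and from 547 ± 15.1 to 209 CPM in the others (1.13, SE 0.04, adjusted p = 8.58e-13). Cox5a went from 812 ± 7.75 to 549.5 CPM and from 490.4 ± 21.5 to 155 CPM (1.10, SE 0.05). L6-Syt6 neurons thus kept more of these transcripts in the sorted library than the other neurons did.

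**Figure D5:**
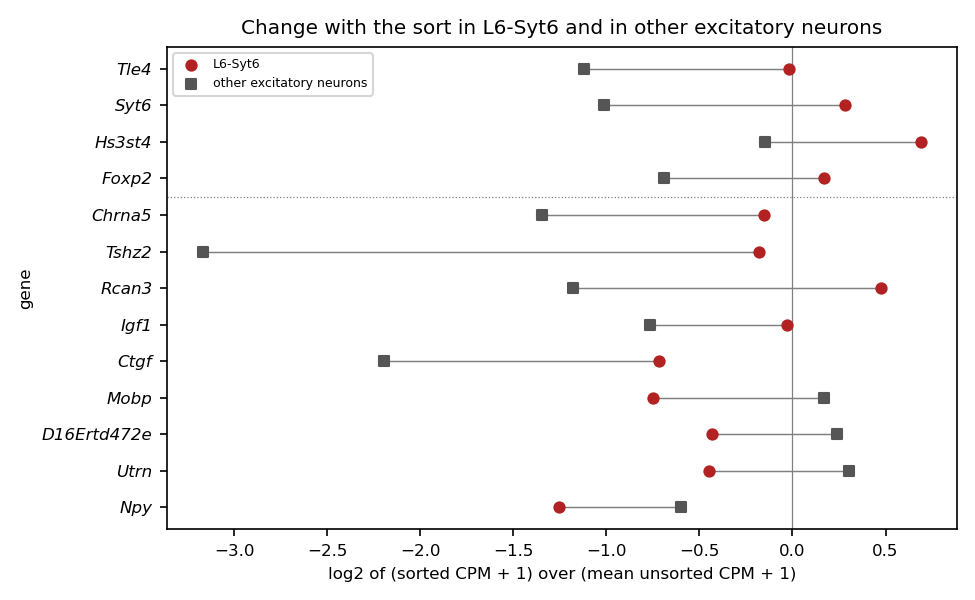
Log2 of sorted CPM + 1 over mean unsorted CPM + 1 (x axis) in L6-Syt6 neurons (circles) and all other excitatory neurons (squares) for 5 genes with the highest and 4 with the lowest differences and the 4 markers (above the dotted line). The circles lie right of the squares for the markers and for Chrna5, Tshz2, Rcan3, Igf1 and Ctgf, and left of them for Mobp, D16Ertd472e, Utrn and Npy.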

How the data were processed

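Per the labels and the study's methods, 10x Genomics 3′ libraries were aligned to mm10 with Cell Ranger, and the authors filtered the cells with Seurat 3.1.4 and clustered them with the Leiden algorithm in Scanpy. The authors deposited raw UMI counts of called cells per library, with no normalization (31054 features, of which 1 is viral), and a table of excitatory neurons with their cluster. The percent of mitochondrial UMIs deposited there was not used but recomputed from the counts. The authors limited doublets by upper limits on genes and UMIs per cell, and no doublet caller was run here. No per-sample column was left unassigned.

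Counts were summed per library and group of neurons. Tests used edgeR 4.0.16 (R 4.3.3) with TMM factors, glmQLFit and glmQLFTest, genes of mean CPM of at least 1 and Benjamini-Hochberg adjustment over all genes tested. Log2 ratios between clusters used a prior count of 2. Ratios to each single cluster used a pseudocount of 1 CPM on cluster means over libraries with at least 10 neurons of the cluster. Cells outside the metadata with a UMI of at least 4 of C1qa, C1qb, C1qc, Csf1r and Cx3cr1 gave the background. Where the library was a block, the p-values measure how the difference between groups of neurons of the same library varies. In the sorted contrast they measure the spread of the unsorted libraries only.

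The named genes were the 15 highest and 10 lowest ratios with a mean CPM of at least 20 in the higher group, the 8 highest and 8 lowest called genes of each tested contrast (5 and 5 for the difference of changes) with a mean CPM of at least 5, and members of gene lists. Of those for the difference of changes, 1 is not reported here. Members and lists were chosen with earlier results of these data known. The shallow neurons without markers and the genes with the largest gap to their nearest cluster were looked at after their values were seen. Gene coordinates came from GENCODE for GRCm38. Alternatives were DESeq2 1.42.0, other scalings and filters, thinning, other comparators and leaving out each library.

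On simulated data with 200 genes changed by 2-fold, the test recovered 96% of them for the sorted contrast (12543 genes). It recovered 86.5% for the difference of changes (12949 genes) and 67% for the layer 6b contrast (12643 genes). False calls numbered 1, 3 and 4 in the same order. The spread of sorted libraries was not measured, so recovery under that spread was not tested.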

Additional observations from a re-analysis of the deposited data

Results flagged for a closer look

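The change from unsorted to sorted neurons was tested for a difference between L6-Syt6 and all other excitatory neurons, and the 9 genes named for that test are listed here as values. Higher in L6-Syt6 were Chrna5 with a difference of 3.46 on the log2 scale, Tshz2 with 3.15, Rcan3 with 3.08, Igf1 with 2.91 and Ctgf with 2.60. Lower in L6-Syt6 were Npy with −1.55, Utrn with −1.34, D16Ertd472e with −1.27 and Mobp with −1.21. All 9 had an adjusted p under 0.05 in edgeR's quasi-likelihood test of the interaction over 8 sums from 4 libraries, of which 1 was sorted, and 3 of the 9, Tshz2, Ctgf and Npy, were also called by DESeq2. The share of L5-Htr2c neurons among the others was 9.07 to 9.35% unsorted and 0.482% sorted, and its part was not tested. With L5-S100b alone as the comparator, Chrna5, Tshz2, Rcan3, Igf1 and Ctgf had differences of 2.43, 0.35, 2.44, 5.70 and 0.91. With L6-Npy alone these were 1.27, 6.66, 6.66, 1.74 and 6.31.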

How the results depend on the processing

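The number of genes called, or past the fold, stayed within 1.5 times its reported value under every alternative but 2. Without a filter on low counts 2794 genes were past the fold between L6-Syt6 and other neurons, where 22258 genes were used in place of 12949, and with L5-S100b as the comparator 223 genes differed in their change with the sort. DESeq2 called 931, 416 and 1667 genes for the sorted contrast, the difference of changes and the layer 6b contrast. Leaving out 1 library gave 1582 to 1732 genes past the fold, 1141 to 1203 for the sorted contrast, 591 to 652 for the difference and 1884 to 2161 for layer 6b. The sorted library could not be left out of the contrasts that need it. Without it the log2 gap of Tle4 to the highest other cluster was 0.10. The sign of a named gene turned in 9 values. In the difference of changes these were, with L6-Npy as the comparator, Trh (−0.10), Hcrtr2 (−0.31) and Trhr (−0.47), and with L5-S100b, Lypd1 (−0.10), Hcrtr2 (−0.32) and Nts (3.70). In the layer 6b contrast with all 3 genes asked for, they were Scg2 (−0.12) and Flt1 (−0.24). Between clusters given equal weight, Ntf3 was at −0.0030. The cause was not tested. Scaling by total counts moved the median log2 ratio of all genes to −0.11 and equal weights to −0.12. Genes at 2 or more times every other cluster numbered 78 with a pseudocount of 5 CPM, against 135 before the fold limit was also asked for. Sorted and unsorted libraries could not be paired because the sorted library pools mice that carry no number shared with the unsorted ones. Arms of 1 library limit the sorted contrasts, and 15 to 37 neurons per library limit the layer 6b levels under about 1 CPM.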
